A study of Mus musculus with 6 samples.

Results

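Integrin subunit genes were examined in *Phf2* KO C2C12 cells. Their members were 10 genes chosen by symbol from the gene count matrix, the α subunits *Itga3*, *Itga5*, *Itga6*, *Itga7*, *Itga9*, *Itga11* and *Itgav* and the β subunits *Itgb1*, *Itgb3* and *Itgb5*, out of 55401 genes in all. All 10 were found in the matrix. C2C12 cells are mouse myoblasts, and they form myotubes in low-serum medium, and the RNA was taken 2 d post differentiation in DMEM with 2% horse serum. The 3 control libraries came from cells labelled wild type, which the study's methods describe as mock cells that received a plasmid with Cas9, ZsGreen and a guide matching no mouse sequence. The 3 *Phf2* KO libraries came from cells that received 4 plasmids with guides against *Phf2*, a histone H3K9me2 demethylase gene. Cells of both kinds were sorted once for ZsGreen and expanded without cloning, so each group came from 1 mixed pool and the replicates are wells of 1 experiment. Differences between the pools and effects of the lost gene cannot be told apart, and p-values measure only the spread between wells.

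Integrins are cell surface receptors made of 1 α and 1 β subunit that tie the extracellular matrix to the cytoskeleton. The β1 subunit pairs with many α subunits, among them α3, α6 and α7, which bind laminin, α5, which binds fibronectin, α9, which binds tenascin and related ligands, and α11, which binds fibrillar collagen. The αv subunit pairs with β1, β3 or β5 and binds ligands with an RGD motif, such as vitronectin and fibronectin. In skeletal muscle, α7β1 is the main laminin-binding integrin of the fiber, while α5β1 and αv integrins are found on myoblasts.

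Levels in each library are given below as CPM, the estimated count scaled to equal library sizes by TMM, which serves comparisons of a gene between libraries. TPM, which is also scaled by transcript length, serves comparisons between genes. Where 3 values of a group are given together, they are those of replicates 1, 2 and 3, in that order. The libraries held between 52526109 and 67502788 estimated counts. After genes with low counts were removed, 17310 genes were tested with edgeR's quasi-likelihood test, and a gene was past the threshold at an adjusted p under 0.05. An adjusted p is from this test unless another tool is named beside it. *Phf2* was at 102.4, 95.5 and 104.6 CPM in control libraries, against 41.1, 37.6 and 38.6 CPM in *Phf2* KO libraries, which is 38.8% of the control mean. The labelled cell type was checked with markers, and the 10 myotube markers held 8137 to 9564 CPM in sum in control libraries and 6553 to 7301 CPM in *Phf2* KO libraries.

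The integrin transcripts changed unequally. Of the 9 members tested, *Itga7* and *Itga6* fell, *Itga11* and *Itgav* rose, and the other 5 did not pass the threshold. Over all genes tested, 3.22% were higher and 3.26% were lower past the threshold, so that 6.48% passed in either direction. The groups of 3 libraries did not overlap for 8 of the 9 members, 6 with every *Phf2* KO library higher and 2 with every one lower, against 25.1% of all genes tested (12.9% higher and 12.2% lower). The median log2 fold change of the 9 members was 0.09, against -0.001 for all genes. The members were chosen with earlier results of these data known, so these contrasts with all genes are no test of the members as a set. *Itga9* was not tested, since its estimated count was 7 in control replicate 1 and 0 in the other libraries. For a tally of reads, a count of 0 would allow up to 3 counts, or 0.0444 to 0.0571 CPM in these libraries. The estimated counts are not such tallies. A count stood for fewer covered bases than a read of the study, so the actual limit is higher.

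**Figure D1:**
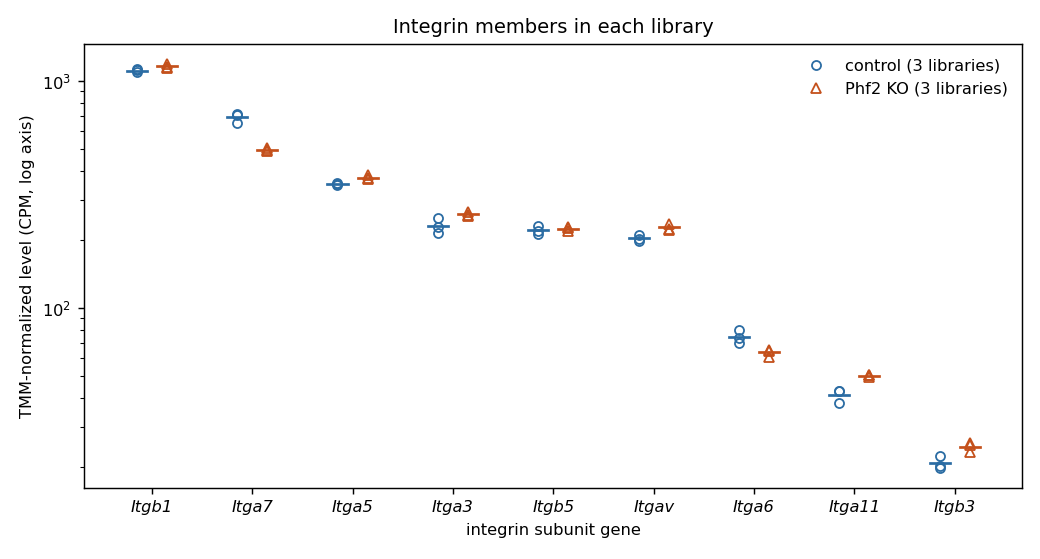
TMM-normalized level of the 9 members tested, in CPM on a log axis, with 1 symbol per library and a bar at the mean of each group. The 3 *Phf2* KO libraries of *Itga7* sit between 490.6 and 506.1 CPM, all below the control libraries at 651.4 to 712.5 CPM, while *Itgb5* overlaps between the groups.

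Promoter sequences are shown for the members that rose past the threshold, *Itgav* and *Itga11*, beside that of *Itgb1*, the partner subunit of most α members. *Itga3* did not pass the threshold, though its log2 fold change (0.17) was near that of *Itgav* (0.16). Every *Phf2* KO library of *Itgb1* was also above every control library. The printed windows are therefore no comparison of members that changed with 1 that did not. RefSeq windows (GRCm38.p6) were found for 7 of the 10 members and not for *Itga6*, *Itga7* and *Itgb3*. The bases lie on the plus strand upstream of the start of each gene, at chr2:83724147-83724396 for *Itgav*, at chr9:62677605-62677825 for *Itga11* and at chr8:128685404-128685653 for *Itgb1*. Capitals mark matches to GGGCGG (GC box), GGAATG (TEAD motif), TGANTCA (AP-1 motif) or CAGCTG (E-box), searched on both strands.
Itgav: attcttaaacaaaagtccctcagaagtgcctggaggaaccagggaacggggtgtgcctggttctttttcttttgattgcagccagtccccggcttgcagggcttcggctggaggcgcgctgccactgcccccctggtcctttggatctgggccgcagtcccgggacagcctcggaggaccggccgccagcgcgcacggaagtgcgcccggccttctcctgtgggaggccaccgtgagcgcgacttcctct
Itga11: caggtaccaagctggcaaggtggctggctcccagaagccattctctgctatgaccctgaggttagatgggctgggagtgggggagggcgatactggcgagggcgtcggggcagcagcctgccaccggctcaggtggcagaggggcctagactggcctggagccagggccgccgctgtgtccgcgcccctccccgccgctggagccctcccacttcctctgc
Itgb1: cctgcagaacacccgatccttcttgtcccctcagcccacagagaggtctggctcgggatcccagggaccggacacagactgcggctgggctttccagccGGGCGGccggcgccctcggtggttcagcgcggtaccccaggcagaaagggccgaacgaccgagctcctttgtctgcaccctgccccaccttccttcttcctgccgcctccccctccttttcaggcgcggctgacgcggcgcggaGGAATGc
The *Itgav* and *Itga11* windows held none of the 4 motifs, and the *Itgb1* window held 1 GC box and 1 TEAD motif. Among the 32851 windows of 250 bases upstream in the table, 32.7% held the GC box, 12.6% the TEAD motif, 6.75% the AP-1 motif and 13.0% this E-box. The 7 genes had 8 windows in all, of which 5 held a GC box, 1 a TEAD motif, 0 an AP-1 motif and 2 this E-box, those of *Itgb5* and *Itga9*. The *Itga9* window lies inside the annotated gene, far from its start. So does the *Itga3* window at chr11:95069199-95069448, which held 1 GC box. The printed *Itga11* sequence stops at the annotated gene start, short of the RefSeq start. The GC content of the 250 bases of *Itgav*, *Itga11* and *Itgb1* was 64.4%, 68.4% and 68%. A match is a string of letters in the window, and binding was not measured.

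The order of the members by TPM was the same in both groups. *Itgb1* was highest, at 614.5, 623.4 and 644.3 TPM in control replicates 1, 2 and 3, with a mean of 627.4 ± 15.3 TPM (SD, n = 3) in control cells and 663.5 ± 26.9 TPM in *Phf2* KO cells. It was followed by *Itga7*, with means of 368.2 ± 24.2 and 270.5 ± 16.9 TPM, and by *Itga5*, with 176.2 ± 1.61 and 190.2 ± 3.24 TPM. *Itgb5* (144.8 ± 4.09 and 148.0 ± 0.616 TPM), *Itga3* (99.6 ± 8.80 and 108.5 ± 3.02 TPM) and *Itgav* (49.6 ± 2.46 and 56.7 ± 2.57 TPM) lay in the middle. *Itga6* (30.0 ± 2.02 and 25.5 ± 1.17 TPM), *Itga11* (18.1 ± 1.31 and 22.1 ± 0.737 TPM) and *Itgb3* (7.57 ± 0.559 and 8.76 ± 0.262 TPM) were lower, and *Itga9* was at most 0.00351 TPM in any library. Neighbours in this order did not overlap between their 3 libraries in either group. Some steps of the order depended on the length used, and by CPM per kb the order was not the same in both groups. With CPM per kb of all exonic bases of a gene in place of TPM, the *Itga7* to *Itga5* ratio was 1.20 ± 0.0529 in control cells and 0.808 ± 0.00483 in *Phf2* KO cells, against 2.09 ± 0.126 and 1.42 ± 0.0653 by TPM (SD, n = 3). By the same measure *Itga7* overlapped with *Itgb5* in *Phf2* KO cells (61.4 ± 1.00 and 62.7 ± 1.37 CPM per kb). *Itga6* overlapped with *Itga11* in control cells (8.27 ± 0.539 and 8.10 ± 0.559 CPM per kb) and lay below it in *Phf2* KO cells (7.06 ± 0.273 and 9.81 ± 0.126 CPM per kb).

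Among the laminin-binding α subunits, *Itga7* and *Itga6* fell and *Itga3* did not pass the threshold. *Itga7* (ENSMUSG00000025348.9, mm10 chromosome 10, 128933818 to 128958282, plus strand) encodes the α7 subunit. Its level was 712.5, 709.5 and 651.4 CPM in control libraries, against 506.1, 493.9 and 490.6 CPM in *Phf2* KO libraries. All *Phf2* KO libraries were lower than all control libraries, and their mean was 71.9% of the control mean. The log2 fold change was -0.48 with an SE of 0.043 and an adjusted p of 3.18e-05. It passed the threshold in each of 12 alternative fits with all 6 libraries, where the adjusted p was between 1.23e-22 and 0.04, and in each of 6 fits without 1 library, where the adjusted p was at most 9.34e-04. Exons of *Itga7* overlap those of *Mettl7b* on the opposite strand, a gene with a count of 0 in all 6 libraries.

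*Itga6* (ENSMUSG00000027111.16, chromosome 2, 71745616 to 71858416) encodes the α6 subunit and changed less. It was at 73.7, 80.0 and 70.4 CPM in control libraries, against 60.9, 65.5 and 64.8 CPM in *Phf2* KO libraries. All *Phf2* KO libraries were below the lowest control library. The log2 fold change was -0.23 with an SE of 0.057 and an adjusted p of 0.0286. Without 1 library it passed only in the fit without control replicate 3 (0.0125), and the adjusted p was 0.0507 without control replicate 1, 0.164 without control replicate 2 and 0.0801, 0.0721 and 0.0685 without *Phf2* KO replicates 1, 2 and 3. With limma it missed the threshold as well, on log2(TPM + 1) (0.219) and on log2(TPM + 0.1) (0.221).

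*Itga3* (ENSMUSG00000001507.16, chromosome 11, 95044474 to 95076801) encodes the α3 subunit. Its level was 226.6, 214.5 and 248.5 CPM in control libraries, against 256.5, 263.7 and 253.4 CPM in *Phf2* KO libraries, so that the groups did not overlap but lay close together. The log2 fold change was 0.17 (95% interval 0.05 to 0.28) with an adjusted p of 0.0813. It passed the threshold with DESeq2 (0.0331) and without control replicate 3 (0.0183).

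The collagen receptor subunit *Itga11* (ENSMUSG00000032243.8, chromosome 9, 62677826 to 62783982) rose. Its level was 38.2, 43.2 and 43.2 CPM in control libraries, against 49.6, 50.6 and 50.7 CPM in *Phf2* KO libraries. The *Phf2* KO libraries lay close to each other and above all control libraries. The log2 fold change was 0.28 with an SE of 0.062 and an adjusted p of 0.0156, the largest rise among the members. The threshold was missed without control replicate 1 (0.0662), without *Phf2* KO replicate 2 (0.0688), without *Phf2* KO replicate 3 (0.0646) and with limma, on log2(TPM + 1) (0.165) or on log2(TPM + 0.1) (0.166).

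Among the α subunits that bind RGD ligands, *Itgav* rose and *Itga5* did not pass the threshold. *Itgav* (ENSMUSG00000027087.11, chromosome 2, 83724397 to 83806916) was at 201.4, 196.5 and 208.5 CPM in control libraries, against 221.1, 223.5 and 235.3 CPM in *Phf2* KO libraries. The groups did not overlap, and the *Phf2* KO mean was 112.1% of the control mean. The log2 fold change was 0.16 with an SE of 0.044 and an adjusted p of 0.0413. This was near the threshold, and each of the 6 fits without 1 library missed it (adjusted p from 0.0502 without control replicate 3 to 0.193 without control replicate 2). So did exactTest, the test that the study names (0.11), upper-quartile normalization (0.0533), the fit without a filter (0.0581) and both limma fits of TPM (0.222 and 0.226). Exons of *Gm13684* on the opposite strand, with counts of 7 to 40, overlap those of *Itgav*, and whether the counting used strand is not given in the sources used here.

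*Itga5* (ENSMUSG00000000555.8, chromosome 15, 103344286 to 103366763) encodes the α5 subunit of the main fibronectin receptor. It was at 351.2, 355.0 and 349.1 CPM in control libraries, against 383.8, 373.4 and 367.9 CPM in *Phf2* KO libraries. Every *Phf2* KO library was above every control library, with a log2 fold change of 0.09 (95% interval 0.01 to 0.18) and an adjusted p of 0.202. A change of the size of that in *Itga7* lies outside this interval.

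None of the 3 β members passed the threshold in the fit as reported, in the 12 other fits with all 6 libraries or in the 6 fits without 1 library. *Itgb1* (ENSMUSG00000025809.15, chromosome 8, 128685654 to 128733200) was at 1089, 1110 and 1128 CPM in control libraries, against 1141, 1153 and 1184 CPM in *Phf2* KO libraries. All *Phf2* KO libraries were above the highest control library by a small margin, and the log2 fold change was 0.06 (95% interval -0.01 to 0.14, adjusted p = 0.339). *Itgb3* (ENSMUSG00000020689.4, chromosome 11, 104608000 to 104670476), a partner of αv, was at 19.8, 22.3 and 20.04 CPM and at 25.4, 25.0 and 23.1 CPM. Its groups did not overlap, and its log2 fold change of 0.24 (95% interval 0.07 to 0.42) had an adjusted p of 0.0986 from the same test. *Itgb5* (ENSMUSG00000022817.15, chromosome 16, 33829665 to 33949338), another partner of αv, was at 212.6, 219.0 and 229.5 CPM and at 226.1, 225.0 and 217.1 CPM. The groups overlapped, with a log2 fold change of 0.02 (95% interval -0.08 to 0.11) and an adjusted p of 0.907 from the same test.

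**Figure D2:**
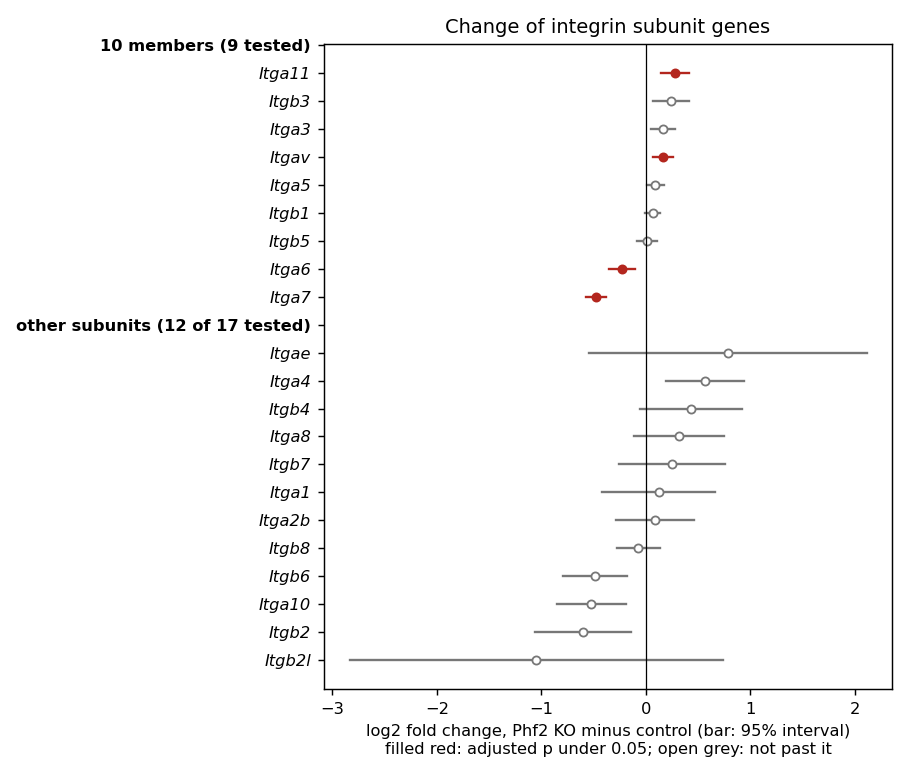
Log2 fold change of integrin subunit genes in *Phf2* KO cells against control cells with its 95% interval, for the 9 members tested and the other 12 subunits tested. Filled red symbols mark an adjusted p under 0.05, which *Itga11*, *Itgav*, *Itga6* and *Itga7* reached and no gene among the other subunits.

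*Itga7* made up less of the α transcripts in *Phf2* KO cells. Its share of the summed TPM of the α members was 51.1%, 50.7% and 47.1% in control libraries, against 41.0%, 38.7% and 40.8% in *Phf2* KO libraries. The groups did not overlap, with means of 49.6% ± 2.22 and 40.1% ± 1.297 (SD, n = 3). The share of *Itga5* was 23.8% ± 0.390 in control cells and 28.3% ± 0.536 in *Phf2* KO cells, and that of the laminin-binding *Itga3*, *Itga6* and *Itga7* together was 67.1% ± 0.912 and 60.0% ± 0.667. The shares of *Itgav* (6.69% ± 0.401 and 8.42% ± 0.303) and *Itga11* (2.44% ± 0.229 and 3.29% ± 0.113) did not overlap between the groups either, while that of *Itga6* did (4.05% ± 0.283 and 3.78% ± 0.206). *Itgb1* held 80.5% ± 0.0482 and 80.9% ± 0.636 of the summed TPM of the β members, with overlapping groups. For each TPM of *Itgb1* there were 0.588 ± 0.0524 TPM of *Itga7* in control cells and 0.408 ± 0.0229 TPM in *Phf2* KO cells. Shares add up to a fixed total, so a lower share of *Itga7* raises the others. The summed TPM of the α members without *Itga7* was 373.5 ± 9.62 in control cells and 403.0 ± 8.61 in *Phf2* KO cells, without overlap. That of all α members was 741.7 ± 17.3 in control cells and 673.5 ± 23.1 in *Phf2* KO cells, also without overlap. TPM is itself scaled to a total over all genes of a library. By CPM per kb the share of *Itga7* was 36.8% ± 1.60 and 27.8% ± 0.264. By that measure the share of *Itga6* did not overlap between the groups (3.56% ± 0.218 and 3.20% ± 0.143), unlike its share by TPM. No test was made of these shares.

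**Figure D3:**
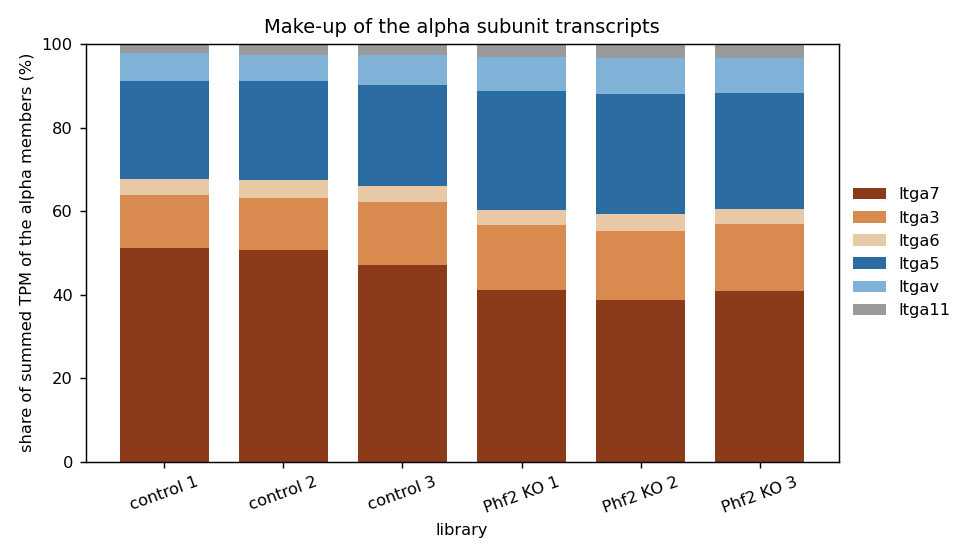
Share of each α member in the summed TPM of the α members, in percent, as 1 stacked bar per library (*Itga9*, at most 0.000462%, is not drawn). *Itga7* takes 47.1% to 51.1% in the control libraries and 38.7% to 41.0% in the *Phf2* KO libraries.

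The genes whose pattern over the 6 libraries was nearest to that of *Itga7* were *Mymx*, *Ank1* and *Npnt*. The measure was the root mean square difference of log2 CPM after each gene was centred on its mean, over 10922 genes, and it was 0.0285, 0.0389 and 0.0395 for these genes. *Mymx* encodes a membrane peptide of myoblast fusion and was at 50.1, 49.1 and 45.3 CPM in control libraries, against 36.5, 34.6 and 33.2 CPM in *Phf2* KO libraries. *Ank1* encodes an ankyrin that links membrane proteins to the cytoskeleton, with a log2 fold change of -0.54. For *Itga6*, the nearest genes were *Nes* (0.0213), which encodes the intermediate filament protein nestin, *Ezr* (0.0259), which encodes a linker of actin to the membrane, and *Thoc5* (0.0265). *Nes* was at 1706, 1869 and 1637 CPM in control libraries and at 1445, 1512 and 1561 CPM in *Phf2* KO libraries. For *Itga11* they were *Mras* (0.0249), *Ttll5* (0.0307) and *Pigh* (0.0315), and for *Itgav* they were *Abcd3* (0.0111), *AW549877* (0.0119) and *Ppp1r12a* (0.0153). These are likenesses over 6 libraries that share the group difference.

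Markers of differentiation moved with *Itga7*. All 10 myotube markers (*Myog*, *Mymk*, *Mymx*, *Ckm*, *Acta1*, *Actc1*, *Myh3*, *Tnnt1*, *Tnnt3* and *Des*) had lower values in *Phf2* KO cells, 7 of them past the threshold. Over all 17310 genes tested, 8698 had lower values, 3.26% were lower past the threshold and 6.48% passed it in either direction. The log2 fold changes of the myotube markers lay between -0.78 and -0.34 with a median of -0.39. With the replicate number as a block *Acta1* passed as well (adjusted p = 8.08e-04, against 0.117 without it). None of these markers was at 0. Of 5 myoblast markers, 1 fell (*Cdh15*) and 4 did not pass the threshold. In *Phf2* KO cells 3 of the 5 had lower values and 2 (*Myf5* and *Pax7*) had higher ones. Their summed levels, mostly *Ncam1*, were 827.4 to 903.5 CPM in control libraries and 744.5 to 764.2 CPM in *Phf2* KO libraries. Of 5 cycling markers, 0 passed the threshold, and 0 had an unadjusted p under 0.05 in the quasi-likelihood fit. The part of the myotube markers in the fall of *Itga7* was not tested. In these bulk libraries, fewer cells of a type and less RNA per cell cannot be told apart. Markers of leukocytes (1.68 to 2.30 CPM in sum over all libraries, *Adgre1* at 0), endothelium (at most 0.79 CPM), epithelium (at most 1.05 CPM, *Epcam* and *Krt5* at 0), platelets (at most 2.47 CPM, *Gp9* at 0) and adipocytes (at most 0.824 CPM, *Plin1* at 0) were near 0. The fibroblast markers held 478.5 to 604.7 CPM in control libraries and 587.3 to 657.6 CPM in *Phf2* KO libraries, mostly *Dcn*, with *Thy1* at 0 and 0 of 3 tested markers past the threshold. With the block *Dcn* passed (adjusted p = 0.0331, against 0.204 without it).

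The other 17 integrin subunit genes were at low levels or not detected. In the quasi-likelihood fit 12 of them were tested and 0 passed the threshold, while 4 had an unadjusted p under 0.05 (33.3%, against 19.4% of all genes tested). DESeq2 called 1 higher and 2 lower, and exactTest and limma-voom called 0. *Itga4*, whose product pairs with β1 and binds VCAM1, was at 3.10, 3.18 and 2.83 CPM in control libraries, against 4.83, 4.76 and 3.93 CPM in *Phf2* KO libraries (adjusted p = 0.0734, 0.0423 with DESeq2). *Itga10*, a collagen receptor subunit, had means of 6.53 ± 0.904 and 4.55 ± 0.1498 CPM (SD, n = 3) and an adjusted p of 0.061. *Itgb6*, a partner of αv in epithelia, had means of 9.16 ± 1.16 and 6.54 ± 0.787 CPM and an adjusted p of 0.0609. It passed the threshold with the replicate number in the model as a block (0.0358), with DESeq2 (0.0201), with a filter at 1 CPM (0.0452), with counts divided by 4 (0.0394) and without control replicate 3 (0.036). *Itgb6* missed it in the other 8 fits with all 6 libraries, up to 0.734 with limma on log2(TPM + 0.1). Without 1 library it missed in 5 of 6 fits, up to 0.241 without control replicate 2. By TPM its groups overlapped, at 5.06, 6.18 and 1.02 TPM in control and 0.798, 3.38 and 2.56 TPM in *Phf2* KO libraries. *Itga10* passed with DESeq2 (0.0248), the filter at 1 CPM (0.0469) and counts divided by 4 (0.0492). It missed in the other 9 fits with all 6 libraries and in all 6 fits without 1 library. The leukocyte subunit *Itgb2* was at 2.99 ± 0.238 and 1.96 ± 0.310 CPM (adjusted p = 0.123). These 4 genes were named after their values were seen. The 5 subunits that were not tested had estimated counts of at most 22 (*Itgam*), and *Itgax* was at 0 in all libraries.

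Integrin ligands changed in both directions. Of 27 ligand genes tested, 5 rose and 3 fell, which is 29.6% of them against 6.48% of all genes tested, and the median log2 fold change was 0.07. The list was chosen with earlier results of these data known, so the 2 shares are no test of the list. The share of all genes also depended on the filter, and was 9.4% with a filter at 1 CPM. *Npnt* fell most clearly. It encodes nephronectin, a basement membrane ligand of α8β1, and was at 166.1, 162.1 and 143.0 CPM in control libraries, against 111.9, 111.2 and 116.3 CPM in *Phf2* KO libraries. The groups stood well apart, with a log2 fold change of -0.47 (adjusted p = 1.79e-04). *Lama5*, a laminin α chain gene, fell from 364.8 ± 13.4 to 328.7 ± 6.08 CPM (SD, n = 3), with an adjusted p of 0.0481. *Lama2*, the α chain of the laminin of mature muscle, was at 97.6 to 101.7 CPM in control libraries and at 90.2 to 106.8 CPM in *Phf2* KO libraries (adjusted p = 0.918).

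Among the ligands that rose was *Svep1*, whose product binds α9β1. It rose from 29.2 ± 1.96 to 38.9 ± 2.78 CPM, a log2 fold change of 0.41 (adjusted p = 0.00415), in cells in which *Itga9* was near 0. *Col1a1* and *Col1a2* encode collagen I, a ligand of α11β1, and had log2 fold changes of 0.20 (adjusted p = 0.0118) and 0.15 (adjusted p = 0.00625). *Thbs1*, which encodes thrombospondin 1, rose from 3570 ± 278.8 to 4295 ± 217.0 CPM (adjusted p = 0.0283), and *Ltbp1*, which encodes a binding protein of latent TGFβ, rose from 152.1 ± 8.37 to 182.1 ± 3.28 CPM (adjusted p = 0.00525). With the block *Tnc*, which encodes tenascin C, passed as well (adjusted p = 0.00719, against 0.133 without it). *Fn1*, the ligand of α5β1, did not pass the threshold, with levels of 11983, 12496 and 13848 CPM in control libraries and 11359, 11541 and 11154 CPM in *Phf2* KO libraries (adjusted p = 0.0653). *Npnt*, *Svep1* and *Ltbp1* passed in all 6 fits without 1 library. *Col1a2* missed the threshold without *Phf2* KO replicate 2 (0.0665), and *Lama5* in all 6 such fits (0.0822 to 0.173). *Thbs1* (up to 0.259) missed it in 5 of these fits, all but that without control replicate 3, and *Col1a1* (up to 0.118) in 3, without control replicates 1 and 3 and *Phf2* KO replicate 2. With exactTest, *Col1a1* (0.0647), *Col1a2* (0.141) and *Lama5* (0.171) missed it, as did *Thbs1* without a filter (0.0948), and of the ligands named only *Npnt* passed with limma on TPM.

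Of 22 tested genes for integrin activators, adaptors and membrane partners, 3 rose and 2 fell, which is 22.7% of them against 6.48% of all genes tested, with a median log2 fold change of 0.07. This list, too, was chosen with earlier results of these data known, so the shares are no test of it. With the block *Parva*, which encodes the ILK partner parvin, passed too (adjusted p = 0.0287, against 0.0698 without it). *Itgb1bp2* encodes melusin, a muscle protein that binds the cytoplasmic tail of β1. It was at 62.8, 57.7 and 50.005 CPM in control libraries, against 42.6, 38.1 and 37.6 CPM in *Phf2* KO libraries. The groups did not overlap, and it fell with a log2 fold change of -0.53 with an SE of 0.081 and an adjusted p of 0.00198. *Cd82*, which encodes a tetraspanin, fell from 231.8 ± 9.60 to 190.1 ± 8.74 CPM (adjusted p = 0.00293). *Dab2*, which encodes an adaptor of integrin endocytosis, rose from 76.3 ± 6.20 to 96.4 ± 4.47 CPM (adjusted p = 0.00418). *Apbb1ip*, which encodes the Rap1 effector RIAM, rose with a log2 fold change of 0.25 (adjusted p = 0.021), and *Lims1*, which encodes the ILK partner PINCH1, with one of 0.19 (adjusted p = 0.043). Without 1 library, *Itgb1bp2*, *Cd82* and *Dab2* passed in all 6 fits. *Apbb1ip* (up to 0.124) missed the threshold in 5, all but that without control replicate 3, and *Lims1* (up to 0.178) in 4, all but those without control replicate 3 and *Phf2* KO replicate 1. *Lims1* also missed it with exactTest (0.094) and upper-quartile normalization (0.0537), and none of these 5 genes passed with limma on TPM. The talin gene *Tln1* was at 900.2 to 952.5 CPM in control libraries and 942.2 to 981.9 CPM in *Phf2* KO libraries (adjusted p = 0.584), and the kindlin gene *Fermt2* at 159.5 to 167.7 and 167.3 to 182.1 CPM (adjusted p = 0.255), with overlapping groups in both cases.

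**Figure D4:**
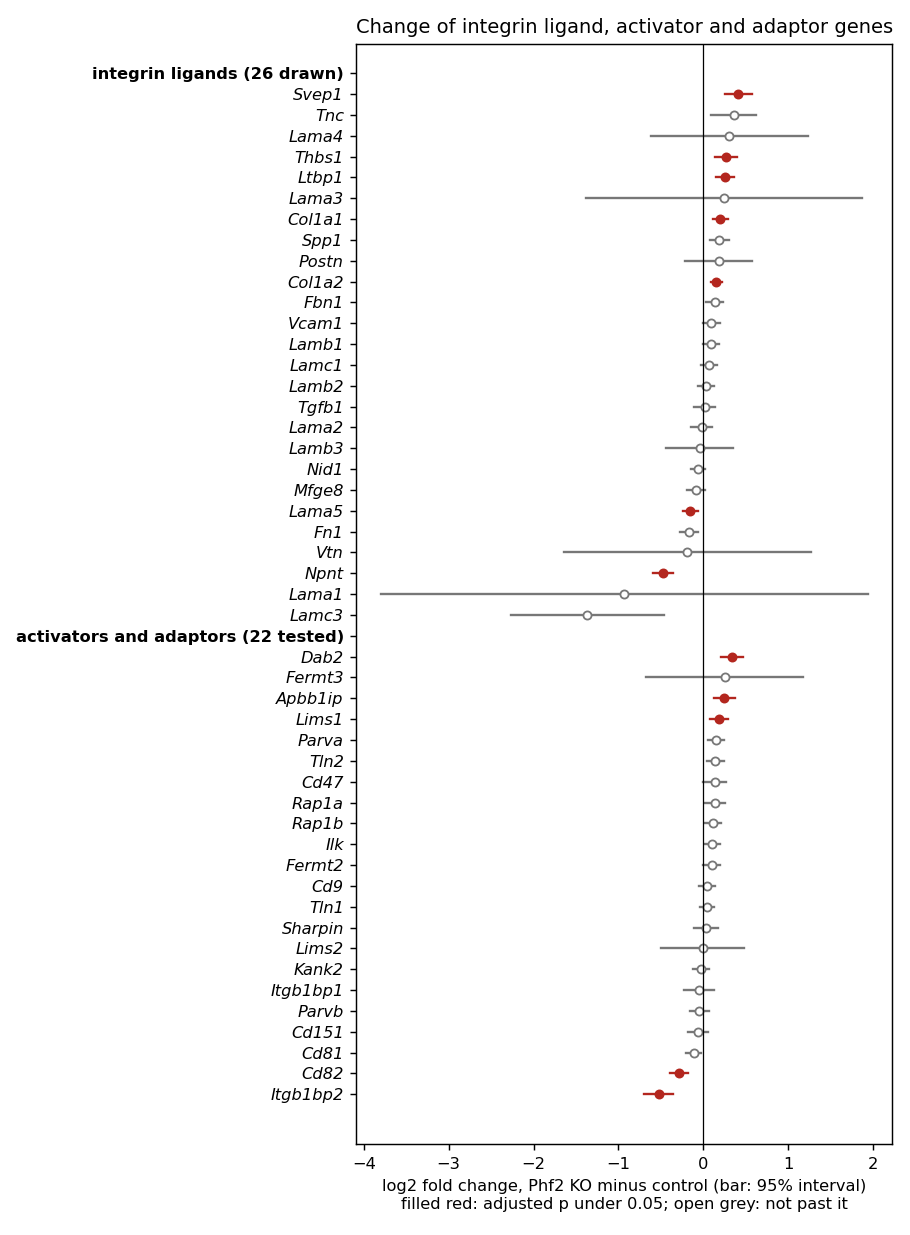
Log2 fold change in *Phf2* KO cells against control cells with its 95% interval, for 26 ligand genes and 22 activator and adaptor genes. Filled red symbols mark an adjusted p under 0.05, with *Npnt* at -0.47 and *Itgb1bp2* at -0.53 among the genes that fell and *Svep1* at 0.41 and *Dab2* at 0.34 among those that rose.

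The members thus differed in how firmly they were called. *Itga7* was past the threshold in every fit run, *Itga6* and *Itga11* in 10 of the 12 other fits with all 6 libraries and *Itgav* in 7 of them. The number of members past the threshold was 5 with DESeq2 (8.82% of all genes tested passed), with *Itga3* as the added member, and 3 with exactTest (6.51%), upper-quartile normalization (6.37%) or no filter (4.15%), where *Itgav* was lost. It was 4 with limma-voom (6.04%), the size factors of DESeq2 (6.45%), library size alone (6.39%), a filter at 1 CPM (9.4%), the replicate number as a block (7.6%) and counts divided by 4 (9.08%). Only *Itga7* passed with limma on log2(TPM + 1) (0.913%) or log2(TPM + 0.1) (1.03%), at a threshold of 0.01 (2.73%), and without control replicate 1 (4.29%), *Phf2* KO replicate 2 (3.22%) or *Phf2* KO replicate 3 (3.44%). *Itga7* and *Itga11* passed without control replicate 2 (2.62%) or *Phf2* KO replicate 1 (4.97%). Without control replicate 3 (5.8%), *Itga7*, *Itga6*, *Itga11* and *Itga3* passed.

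**Figure D5:**
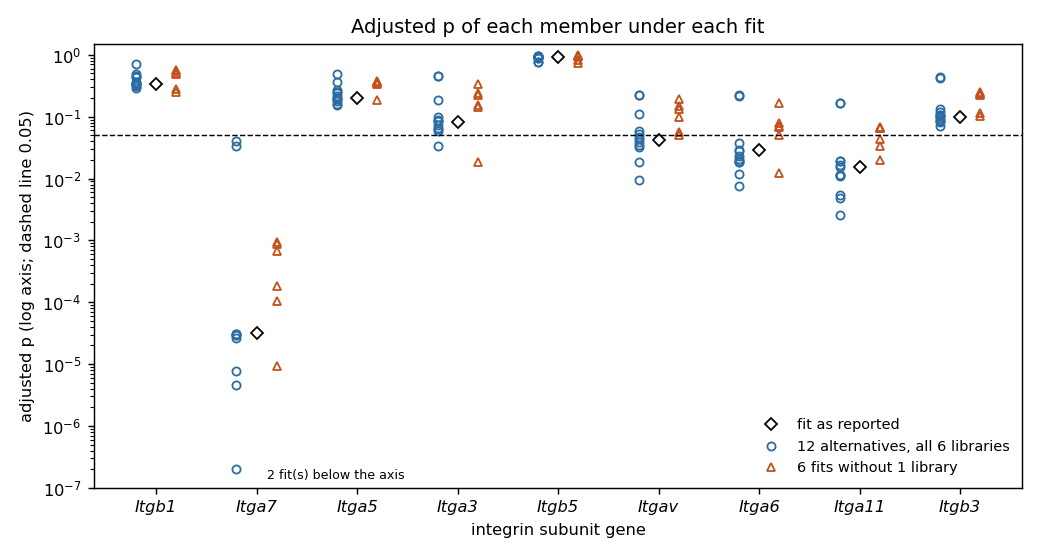
Adjusted p of each member on a log axis for the fit as reported, 12 alternative fits with all 6 libraries and 6 fits that each left out 1 library, with a dashed line at 0.05. All fits of *Itga7* lie below the line (2 are below the axis), all fits of *Itgb1*, *Itgb3*, *Itgb5* and *Itga5* lie above it, and *Itgav*, *Itga6*, *Itga11* and *Itga3* have fits on both sides.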

How the data were processed

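Reads were mapped by the authors with HISAT2 (mm10), and StringTie gave the values per gene (versions and annotation are not given in the sources used here). Estimated counts, rounded to integers and not normalized, make up the deposited matrix. They are not tallies of reads, since covered bases per count had a median of 74.98 to 74.99 in genes with 1 transcript. A deposited table per library gives TPM, treated here as a signal, which the authors scaled by transcript length. Its rows of assembled loci repeat the reference genes and were left out. Counting was per gene, so subunit isoforms were not resolved.

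Genes were kept by filterByExpr with a minimum count of 10, scaled with TMM factors and tested with the quasi-likelihood test of edgeR 4.0.16 (R 4.3.3), with Benjamini-Hochberg adjustment over 17310 genes. Log2 fold changes are *Phf2* KO minus control. Alternatives were exactTest, DESeq2 1.42.0, limma-voom (limma 3.58.1), other scalings and filters, counts divided by 4, limma on log2(TPM + 1) and log2(TPM + 0.1), a threshold of 0.01, the replicate number as a block and leaving out each library. The fit with exactTest called 1127 genes at 0.05, more than the study reported with that test at the same threshold. It is therefore not a repeat of the study's fit. The procedure was run on simulated data, with the same spread set for all genes and with changes larger than that of any member. That run therefore says nothing about changes of the size seen in the members. Annotation was GENCODE M21 (GRCm38, the assembly of mm10).

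Over 10923 genes, deviations of same-numbered libraries from their group means correlated at 0.235, 0.258 and 0.168, and those of other pairs at most at -0.00193. The sources used here do not say that wells with the same number were handled together. With 3 libraries per group, these correlations do not establish a pairing. Deviations from a group mean cancel out within the group, so positive values for same-numbered libraries force the other pairs to be negative on average. The values of the other pairs are therefore no separate evidence of a pairing. The correlation is taken across genes, and genes are no independent replicates.

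Named were all members, *Phf2*, other subunits past the threshold, up to 6 genes past it per related list (*Col1a2* and *Lama5* as well, after their values were seen, like the ligands and adaptors given as not past it) and the 3 nearest patterns among genes of at least 5 CPM. A gene of the ligand list that counts among those past the threshold is not reported here by name. The members and lists were chosen with earlier results of these data known.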

Additional observations from a re-analysis of the deposited data

How the results depend on the processing

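Of the 17310 genes, 557 were higher and 565 lower past the threshold, and these became 70 and 88 in the limma fit of log2(TPM + 1), 78 and 100 in that of log2(TPM + 0.1), 204 and 268 at a threshold of 0.01, and 206 to 507 and 262 to 532 without 1 library. The members past the threshold (2 higher, 2 lower) were 0 higher and 1 lower in both limma fits and at a threshold of 0.01, 1 higher with exactTest, upper-quartile normalization or no filter, and 0 to 2 higher and 1 to 2 lower without 1 library. The other subunits (0 and 0) had 1 higher and 2 lower with DESeq2, 2 lower with a filter at 1 CPM or counts divided by 4, and 0 to 1 lower without 1 library. With the replicate number as a block they had 1 lower, *Itgb6*, the ligands had 6 higher and the activators and adaptors 4 higher. Among the 100 tested genes of the members, related lists and markers, the block changed 5 calls (*Itgb6*, *Tnc*, *Parva*, *Acta1* and *Dcn*), none of a member. The ligands (5 and 3) had 0 higher and 1 lower in both limma fits, 3 and 1 at a threshold of 0.01, and 2 to 6 and 1 to 3 without 1 library. The activators and adaptors (3 and 2) had 5 higher with DESeq2, 0 and 0 in both limma fits, 1 higher at a threshold of 0.01, and 1 to 3 higher and 2 lower without 1 library. The threshold of 0.01 is stricter by construction, and a fit without 1 library has fewer samples. For the limma fits the cause was not tested.

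Of all genes named under an alternative, the sign turned in 1 case, *Itgb5*, with a log2 fold change of -0.0128 without control replicate 1 (up to 0.0432, without control replicate 3). The other count scalings moved the median log2 fold change of all genes by at most 0.0101, and the limma fits of TPM by up to 0.0124. CPM per kb in place of TPM moved 24 of 28 shares and ratios by more than the spread between replicates, and the direction of *Itga7* was kept. Estimated counts of at most 22 limit what can be said of the subunits not tested.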
